A study of Mus musculus with 4 samples.

Results

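The regions described here are the 28175 stretches of DNA that the authors listed as differentially accessible between other effector T helper cells and Th2 cells in the inflamed mouse lung, taken as every entry of that deposited table. After regions of all 6 pairwise tables of the series were merged where they shared at least 1 bp, they made up 27959 of 52537 distinct regions, or 53.2%. The other effector cells (CD3+CD4+CD44+ST2-CD30L+, also called non-Th2 memory cells in the labels) and the Th2 cells (CD3+CD4+CD44+ST2+CD30L+) were both sorted from lung together with airways of mice given house dust mite extract (HDM), an allergen that models asthma. The sample titles put both at day 15 after sensitization and challenge, while the description of the other effector sample carries D10. Where values of other populations stand beside these, they come from regulatory T cells (Treg, CD3+CD4+CD25hiCD30L-) of the same tissue and from naive cells (CD3+CD4+CD44loCD62Lhi), which the protocol takes from lymph node (mLN) and the source label from lung. Per the labels' protocols, each population had 3 biological replicates of 1000 cells, tagmented for 30 minutes at 37 °C, amplified for 16 PCR cycles and sequenced as paired reads of 125 bases. The labels give no strain, sex or age for the mice. The sort set ST2 apart between the populations, so its gene, Il1rl1, describes the gate and is not a finding. CD44 and CD30L were required in both populations. Their genes, Cd44 and Tnfsf8, thus belong to the gate but were not set apart by it.

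ATAC-seq uses a transposase that inserts adapters into DNA that is not wrapped tightly in chromatin, so reads pile up at active promoters and enhancers. Th2 cells are the helper T cells that make IL-4, IL-5 and IL-13, cytokines that drive eosinophil recruitment, mucus and IgE in allergic airways. The transcription factors GATA3 and STAT6 direct their differentiation, and ST2, the receptor for the alarmin IL-33, marks those that respond in the lung. The genes Il4, Il13 and Il5 lie together around Rad50, whose introns hold the locus control region of the cluster.

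The promoter windows of 3 cytokine genes, of Gata3 and of Gapdh, a gene that all cells use, are shown because a listed region covered a window of each. Il4 has 2 annotated starts, and both windows are shown: the listed region covered all 300 bases of the window at the internal start and 0 bases of the window at the outer start, the 5′ end of the gene. Each window runs from 250 bases before to 50 bases after the start of the gene, is read 5′ to 3′ on the strand of the gene, and comes from the RefSeq promoter table of build GRCm38.p6. Capitals mark matches, on either strand, to 10 short motifs: AGATAA or TGATAA for GATA factors, TGANTCA for AP-1, TGTGGTT for RUNX, CCGGAA for ETS, CACGTG for the E-box that BHLHE40 binds, GGTGTGA for T-box factors, TGGAAA for NFAT, CCAAT for NF-Y, GGGCGG for SP and KLF factors and TGACGT for CRE-binding factors. A match describes the letters and is not a bound site.
Il4 internal start, chr11:53617289-53617588, minus strand: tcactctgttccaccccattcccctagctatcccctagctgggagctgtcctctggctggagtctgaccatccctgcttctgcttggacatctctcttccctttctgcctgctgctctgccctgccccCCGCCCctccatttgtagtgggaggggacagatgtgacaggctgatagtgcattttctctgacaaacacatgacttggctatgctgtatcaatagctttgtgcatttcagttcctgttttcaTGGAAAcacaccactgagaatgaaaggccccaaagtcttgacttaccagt
Il4 outer start, chr11:53618616-53618915, minus strand: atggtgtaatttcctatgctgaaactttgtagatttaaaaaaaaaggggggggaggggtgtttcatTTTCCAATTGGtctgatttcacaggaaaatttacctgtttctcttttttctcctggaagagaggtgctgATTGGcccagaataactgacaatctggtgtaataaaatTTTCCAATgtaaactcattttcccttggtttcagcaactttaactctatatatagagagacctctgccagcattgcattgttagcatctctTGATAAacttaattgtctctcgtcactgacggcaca
Il13, chr11:53634653-53634952, minus strand: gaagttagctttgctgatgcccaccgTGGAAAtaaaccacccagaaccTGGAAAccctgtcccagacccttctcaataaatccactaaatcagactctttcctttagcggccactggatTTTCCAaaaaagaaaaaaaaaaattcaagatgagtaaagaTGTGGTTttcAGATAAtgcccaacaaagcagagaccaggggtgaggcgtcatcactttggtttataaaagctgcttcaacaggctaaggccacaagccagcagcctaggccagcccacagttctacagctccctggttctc
Il6, chr5:30012864-30013163, plus strand: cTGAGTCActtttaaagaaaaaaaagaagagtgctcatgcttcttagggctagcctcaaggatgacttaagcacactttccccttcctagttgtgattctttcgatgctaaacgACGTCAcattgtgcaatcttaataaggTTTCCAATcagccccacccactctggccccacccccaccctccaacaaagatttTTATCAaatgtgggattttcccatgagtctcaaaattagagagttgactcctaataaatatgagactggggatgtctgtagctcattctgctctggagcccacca
Gata3, chr2:9878551-9878850, minus strand: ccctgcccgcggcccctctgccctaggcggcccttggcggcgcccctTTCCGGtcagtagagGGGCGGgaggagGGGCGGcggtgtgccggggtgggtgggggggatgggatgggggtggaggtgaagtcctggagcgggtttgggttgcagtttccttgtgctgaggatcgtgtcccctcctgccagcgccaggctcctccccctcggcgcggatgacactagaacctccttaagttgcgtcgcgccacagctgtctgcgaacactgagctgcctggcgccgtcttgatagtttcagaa
Gapdh, chr6:125165724-125166023, minus strand: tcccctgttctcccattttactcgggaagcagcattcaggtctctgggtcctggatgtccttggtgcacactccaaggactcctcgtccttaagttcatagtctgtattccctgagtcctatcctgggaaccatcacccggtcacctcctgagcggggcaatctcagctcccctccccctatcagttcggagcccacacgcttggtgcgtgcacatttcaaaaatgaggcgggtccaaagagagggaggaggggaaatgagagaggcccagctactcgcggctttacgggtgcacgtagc

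The cytokine windows had less G and C than the Gata3 window. GC content was 51.7% for the internal and 38.0% for the outer Il4 window, 46.0% for Il13 and 44.0% for Il6, against 67.3% for Gata3 and 56.7% for Gapdh. The Il13 window held 3 NFAT matches with 1 GATA and 1 RUNX match, and the internal Il4 window held 1 NFAT and 1 SP and KLF match. The outer Il4 window, which was not covered, held 4 NF-Y, 2 NFAT and 1 GATA match, some of them overlapping. The Il6 window held 1 match each for GATA, AP-1, NFAT, NF-Y and CRE, of which the NFAT and NF-Y matches overlap. The Gata3 window held 2 SP and KLF matches and 1 ETS match, and the Gapdh window held 0 matches to any of the 10 motifs.

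All 28175 regions carried a negative value, which is the log2 fold of other effector minus Th2 cells, so every listed region was less accessible in other effector cells and 0 were listed as more accessible there. This was not particular to Th2 cells. On sequences with annotated starts, all 17219 regions of naive minus other effector were also lower in other effector cells. So were all 24056 of other effector minus Treg. The tables without other effector cells listed both directions. The cause of this difference was not tested. The sign follows the order of the populations in the name of the table, since a list in a single direction cannot show its own orientation. Markers were checked in other tables of the series. In the naive minus Th2 table the regions of Il4, Il5 and Il13 were below 0 at 8 and above 0 at 0, and in the Treg minus Th2 table the regions of Foxp3, Ikzf2 and Ctla4, genes of Treg, were above 0 at 14 and below 0 at 0. At 3 regions other effector minus Th2, other effector minus Treg and Treg minus Th2 were all listed. There the first value was the sum of the others, with a largest residual of 0.0. The folds are the authors' own values throughout. Read counts, replicate values and p-values are not used here, so depth is unknown, no fold has an error, and no test between the populations could be made. The median fold was -5.40, with quartiles of -6.41 and -4.56. The mildest was -3.46, in Iqgap1, and the most negative was -15.08.

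A comparison of the deposited tables bears on how the sizes of these folds can be read. At 3896 regions the same coordinates were listed in the naive minus Th2 table, where all 3896 values were also below 0. The 2 values differed by -0.17 or -0.18 at 3173 of these regions (81.4%), and the next most frequent difference, 0.21, occurred at 51. Naive and other effector cells thus had a constant offset at most of these regions. The tables share the Th2 libraries and are not independent. The median fold was -5.63 at the regions with this offset and -5.84 at the others. Against Treg, 2659 of 3543 regions with the same coordinates in the Treg minus Th2 table (75.0%) had the same fold within 0.01 as in the other effector minus Th2 table. At the other 884 Treg was above other effector cells, by up to 9.16 log2 units, and at 0 it was below. The cause of the offset was not tested.

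The Th2 cytokine locus on chromosome 11 held 18 listed regions from Kif3a to just beyond Il5, with folds from -7.13 to -4.05 and a median of -5.58. Il4 had 1 listed region (chr11:53617207-53617866), which lay inside the gene over its internal start and had a fold of -6.94. For Il13, 6 regions were listed, from -6.99 at a region whose midpoint is 7.76 kb from the gene start on the Il4 side, to -4.23, and the region across the start itself had a fold of -5.26. Il5 had 4 regions, with -6.39 for the one near its start (chr11:53719396-53720232) and -5.34, -4.34 and -4.05 for the others. Rad50 had 4 as well. Of these, the regions at chr11:53662740-53663661 and chr11:53655102-53655400, both inside the gene, had folds of -6.59 and -6.38, and the others had -5.61 and -4.49. Kif3a, a kinesin gene that borders Il4, had regions of -7.13, -6.22 and -4.15. Of the 10 locus regions listed with the same coordinates in naive minus Th2, 8 differed by the offset of -0.17 or -0.18 described above and 2 did not. Il4 had -6.94 here and -7.11 in naive minus Th2, while the Il13 region at chr11:53635587-53635912 had -5.83 here and -4.47 there.

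**Figure D1:**
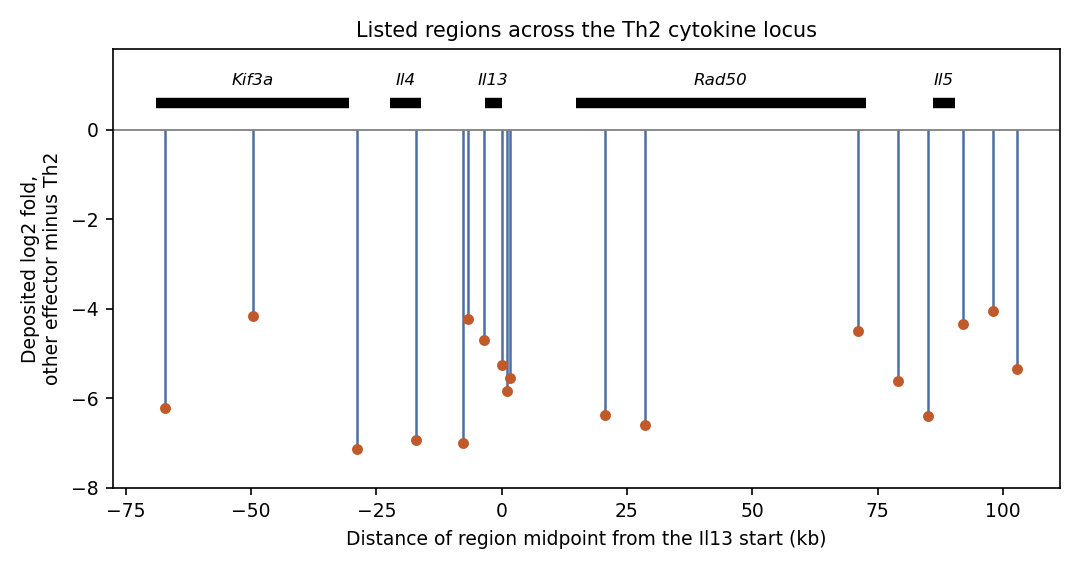
Each point is 1 listed region of the Th2 cytokine locus, placed by the distance of its midpoint from the Il13 start in kb and by its deposited log2 fold, other effector minus Th2; black bars are genes. The 18 regions sit between -7.13 and -4.05, and all lie below 0.

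Cytokine genes had a larger share of listed regions than the background. Of 15 genes for Th2 and related cytokines and their locus, 13 had at least 1 listed region assigned (the gene holding the midpoint of the region or, outside genes, the one with the nearest end within 100 kb), against 11305 of 21900 protein-coding genes (51.6%). Of their 65 merged regions, 52 were listed (80.0%, exact 95% binomial interval 68.2% to 88.9%), against 53.2% of all merged regions. These shares are descriptions with no test: the intervals cover counting error only, and regions of 1 gene are not independent. Merged regions are only those listed in at least 1 of the 6 comparisons, this one included. A region listed here alone thus raises a share, and one listed only elsewhere lowers it. Where a list stands against 53.2% therefore depends in part on what the other comparisons list. The median fold over this list was -5.54, against -5.40 over all listed regions. Il10, whose product restrains inflammation, had 8 regions from -7.50 to -3.97, with the most negative at chr1:131000372-131000823, upstream of the gene. Il6 had 6, including -6.63 at the start shown above and -7.43 at chr5:29948186-29948684, 64679 bases from that start. Tnfsf11, which encodes RANKL, had 7 from -6.96 to -4.30, all outside the gene body. Il1a had 5, down to -7.56. Csf2, the GM-CSF gene, had 4 from -6.07 to -4.09, and Areg, which encodes the tissue repair factor amphiregulin, had 1 of -5.83. Il3 and Il24 had 0 listed regions assigned.

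Several of these cytokine regions were also listed against other populations. At the most negative Il10 region the deposited tables gave -7.50 for other effector minus Th2, -7.27 for other effector minus Treg and -7.67 for naive minus Th2, comparisons that share populations. For the Areg region they gave -5.83 against Th2 cells and -6.97 against Treg, each time for other effector cells. At the Il4 region and at the regions of Il5 and Il13 near their starts, neither other effector minus Treg nor Treg minus Th2 listed the same coordinates.

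Transcription factor genes of the Th2 programme were listed close to the background share. Of their 150 merged regions, 85 were listed (56.7%, interval 48.3% to 64.7%, against 53.2%), although 13 of the 15 genes had a region, against 51.6% of all genes. Gata3, the master regulator of the lineage, had 5 regions. A pair near the start had folds of -7.31 (chr2:9879155-9879820) and -6.56, another inside the gene had -6.54, and the others had -4.68 and -4.22. Stat6, which relays the IL-4 signal, had a single region, at its start, of -8.10. Pparg, a nuclear receptor for fatty acids, had 11 from -7.07 to -3.86, with -7.06 and -5.03 at 2 of its starts. Rbpj, through which Notch reaches DNA, had 16 regions, of which 13 lay outside the gene, and the most negative was -8.16 (chr5:53509304-53509975), 46140 bases away from it. Bhlhe40, a repressor that sustains cytokine production by helper T cells, had 9, down to -7.77 at a region of 1839 bp that overlaps one end of the gene. Prdm1, the gene of BLIMP-1, had 11 from -7.48 to -4.46. Junb had 3 of -8.82, -7.94 and -7.58, the most negative value of the list. Maf, a factor for Il4 and Il10, had 3 of -4.74, -4.45 and -4.08, all milder than the median of all regions. Stat5a and Stat5b had 0.

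Receptors for alarmins and type 2 signals were also near the background, with 50 of 98 merged regions listed (51.0%, interval 40.7% to 61.3%), with a median fold of -5.86. The list holds Il1rl1 and Tnfsf8, genes of the sort gate. Without them, a choice made after seeing the data, 31 of 73 were listed (42.5%, interval 31.0% to 54.6%) at a median of -5.96. Il1rl1, which encodes the sorted ST2, had 16 regions from -7.60 (chr1:40399429-40400091) to -4.04, of which 12 lay inside the gene. Crlf2, a chain of the receptor for the alarmin TSLP, had 4, and its region of 2057 bp at chr5:109556757-109558813 had -9.26, the most negative value of the list. Il4ra, which encodes a chain of the IL-4 and IL-13 receptors, had 4 from -7.31 to -6.31. Il7r, which encodes a chain shared by the receptors for IL-7 and TSLP, had 5 from -6.11 to -5.01, and Il18r1 had 3 from -5.34 to -4.09. Il17rb, a chain of the IL-25 receptor, and Ptgdr2, which encodes the prostaglandin receptor CRTH2, had 0 regions assigned, but the promoter window of Il17rb was covered by a region assigned to a neighbouring gene.

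**Figure D2:**
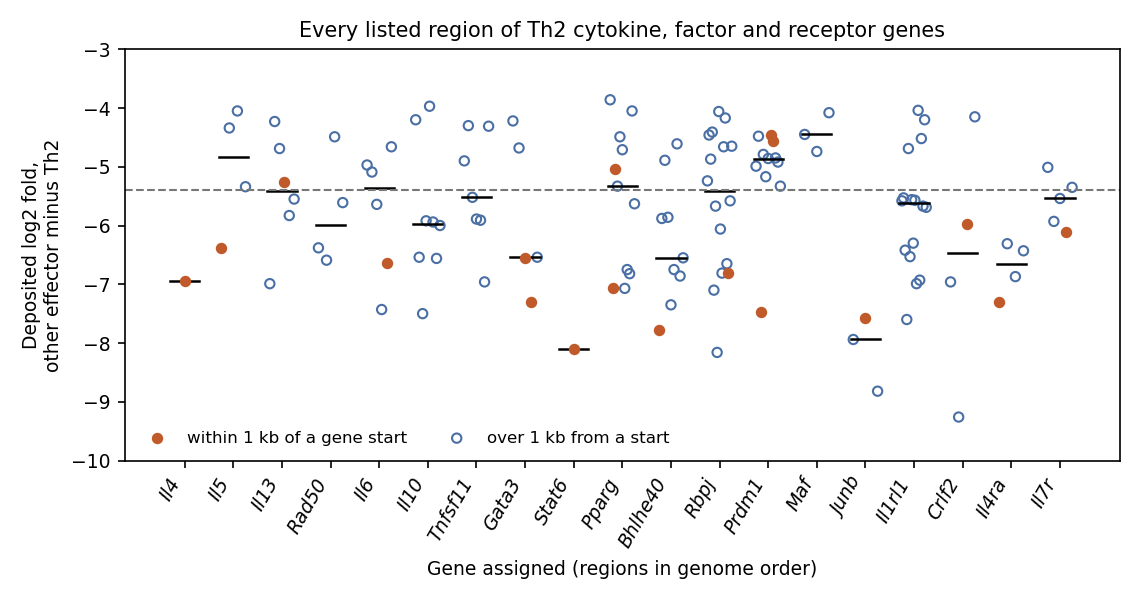
Every listed region assigned to 19 cytokine, transcription factor and receptor genes, in genome order within a gene, by its deposited log2 fold, other effector minus Th2. Filled points lie within 1 kb of a gene start and open points farther away; black bars are medians of a gene and the dashed line is the median of all listed regions, -5.40.

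Genes of signal-driven transcription factors had a higher share. For AP-1, NFAT and NF-kB factors and their inhibitors, 20 of 21 genes had a region, against 51.6% of all genes. Of their merged regions, 133 of 211 were listed (63.0%, interval 56.1% to 69.6%, against 53.2%), with a median fold of -6.07. Fos, an AP-1 subunit, had 13 from -8.09 to -4.21. Nfkb1, which encodes an NF-kB subunit, had 18 regions, the most in this list. Nfatc1, the gene of an NFAT factor, had 14 from -6.89 to -4.32. Among the inhibitors, Nfkbia had 8 with a value of -9.30 across its start (chr12:55491738-55492957), and Tnfaip3, the gene of A20, had 14 with a most negative value of -8.27. Fosl1 had 0.

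Lipid handling genes, which include Pparg and several of its known targets, had 101 of 143 merged regions listed (70.6%, interval 62.4% to 77.9%, against 53.2%). The housekeeping genes described below were at 67.7%. By gene, 23 of 24 lipid handling genes had a region, against 51.6% of all genes, and the median fold was -5.47. Abca1, a cholesterol exporter, had 12 from -7.25 to -4.03. Plin2, which coats lipid droplets, had 8 with values down to -8.77. Cd36, a fatty acid transporter, had 8 from -6.83 to -3.91. Fasn, which makes fatty acids, was the 1 gene of this list with 0 regions.

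Chemokine and homing receptors were below the background, with 53 of 144 merged regions listed (36.8%, interval 28.9% to 45.2%) at a median of -5.07. With genes as units the list stood above the background, since 13 of 18 genes (72.2%) had at least 1 listed region, against 51.6% of all genes. Ccr1 had 16 regions, down to -7.63, and Cxcr4 had 7 with values down to -6.84. Ccr4, a receptor of Th2 cells, had 3 of -5.33, -4.12 and -4.06. Ccr8, another receptor found on Th2 cells, had 0, as did Ccr7, Cxcr3, Cxcr6 and S1pr4. Genes of tissue residence and adhesion were at 68 of 143 (47.6%, interval 39.1% to 56.1%), with 9 regions for Cd69, an early activation marker that holds cells in tissue, and 8 for Itgb2, an integrin chain. Cd44, a sort marker, had 15, and without it the list was at 54 of 120 (45.0%). Among IL-2 family receptors 14 of 40 were listed (35.0%, interval 20.6% to 51.7%), Il2ra had 7 from -5.07 to -4.39, and Il2rb had 0.

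Genes of the other helper lineages were listed too, and in the same direction. Of the regions of Th1 genes, 39 of 92 were listed as less accessible in other effector cells (42.4%, interval 32.1% to 53.1%). Ifng had 2 of -5.77 and -4.06, at 33889 and 28132 bases from the gene, Tbx21, which encodes the Th1 factor T-bet, had 2 of -5.26 and -5.16, and Stat4 had 5 from -6.64 to -3.82. Runx3 had 13, the most of the Th1 list. Cxcr3 and Eomes had 0. Th17 genes were at 38 of 83 (45.8%, interval 34.8% to 57.1%). Rora, which also acts in type 2 lymphoid cells, had 18 regions, while Il17a, Il17f and Il23r had 0. Genes of follicular helper cells were at 19 of 80 (23.8%, interval 14.9% to 34.6%), with 3 regions for Bcl6, down to -7.13, and 2 for Cxcr5, of -4.66 and -3.79, and 0 for Tox2, Sh2d1a and Cd200.

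Treg genes had 81 of 216 merged regions listed (37.5%, interval 31.0% to 44.3%). Ctla4, an inhibitory receptor, had 4 from -6.52 to -3.65, Ikzf2, the gene of Helios, had 5 from -6.99 to -3.90, and Foxp3 had 0. Genes of naive T cells were at 87 of 388 (22.4%, interval 18.4% to 26.9%), and most of these regions belonged to a pair of genes, Foxp1 with 28 and Bach2 with 21. Tcf7 had 3 of -5.13, -4.54 and -4.19, while Ccr7, Lef1, Satb1 and Igfbp4 had 0. Naive minus other effector listed 32 of the 39 merged regions of Lef1 and 30 of the 31 of Satb1, which lowers the share of this list. Genes of T cell receptor signalling were at 83 of 289 (28.7%, interval 23.6% to 34.3%). Cd3d, Cd3e, Cd3g, Cd4 and Lat, which the sorted cells share, had 0, and lists of differences cannot show whether such genes were open in both populations. Prkcq, a kinase gene, had 13 and Rasgrp1 had 12. By gene, all of these lists stood above the 51.6% of all genes with a listed region: 4 of 5 IL-2 family receptor genes had one, 14 of 17 tissue residence and adhesion, 13 of 15 Th1, 7 of 11 Th17, 7 of 10 follicular helper, 19 of 20 Treg, 12 of 16 naive and 19 of 24 T cell receptor signalling genes. A gene with more regions has more chances to count.

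**Figure D3:**
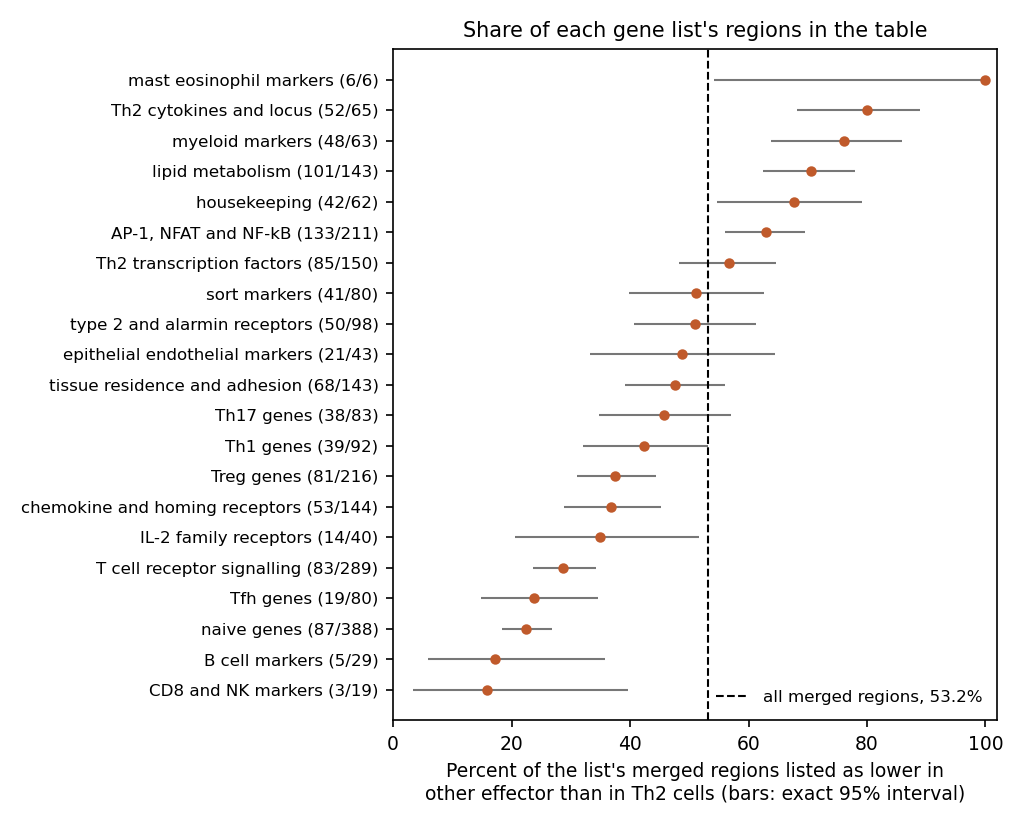
For each of 21 gene lists, the point is the percent of its merged regions that were listed as less accessible in other effector than in Th2 cells, with the exact 95% binomial interval; the counts stand beside each name and the dashed line is 53.2%, the share of all merged regions. Th2 cytokine genes stood at 80.0% and naive genes at 22.4%.

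Genes that every cell uses were listed as well. All 20 housekeeping genes had a region assigned, and 17 of 20 had a listed region centred within 1 kb of either end, against 8457 of 21900 protein-coding genes (38.6%). Their merged regions were listed at 42 of 62 (67.7%, interval 54.7% to 79.1%, against 53.2%), with a median of -5.94. The region at the Gapdh start, shown above, had a fold of -7.73, more negative than the one at the internal Il4 start. Rplp0, a ribosomal protein gene, had -7.41, Tbp, the TATA-binding protein gene, had -7.04, and Polr2a, the gene of the large subunit of RNA polymerase II, had -7.09. What part a difference in library quality, depth or scaling between the populations has in the listed folds was not tested.

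Markers of cells outside the sort varied. Myeloid markers had 48 of 63 merged regions listed (76.2%, interval 63.8% to 86.0%, against 53.2%). By gene, 11 of 12 had a region, against 51.6% of all genes. Cebpb had 17 regions, Cebpa 6, and the macrophage gene Csf1r had 2 of -7.45 and -4.31, while Lyz2 had 0. Mast cell and eosinophil markers had 6 of 6 (lower bound of the interval 54.1%), but 0 of 6 at an absolute fold of at least 6. All 6 came from Siglecf, Cpa3 and Ms4a2, with 0 for Epx, Prg2, Fcer1a, Mcpt4 and Cma1. B cell markers were at 5 of 29 (17.2%, interval 5.85% to 35.8%) with 0 for Cd79a, Cd79b and Blk. CD8 and NK markers were at 3 of 19 (15.8%, interval 3.38% to 39.6%), all from Klrb1c, with 0 for Cd8a and Cd8b1. Epithelial and endothelial markers were at 21 of 43 (48.8%, interval 33.3% to 64.5%), with 8 regions for Pecam1 and 0 for Sftpc, Krt8 and Krt18. The part of other cell types in the listed regions was not tested.

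Listed regions lay at promoters more often than those of most other tables, and were more negative there. Of 27343 regions on sequences with annotated starts, 8139 had a midpoint within 1 kb of a start (29.8%, interval 29.2% to 30.3%). The share was 29.9% of regions in the other effector minus Treg table and 10.1% in naive minus other effector, which share the other effector libraries. In the tables without other effector cells it was 11.7% for regions higher in Th2 than naive cells and 12.8% at most elsewhere. Promoter regions here had a median fold of -6.21 and a median width of 857 bp. Those 1 to 10 kb away had -5.14 and 336 bp, those 10 to 100 kb away had -5.07 and 358 bp, and the 1856 farther ones had -5.17. Wider regions were more negative in general. The median was -4.51 at the 2787 regions of exactly 150 bp, the smallest width, and -7.30 at the 605 regions over 1500 bp, and across all regions Spearman's rho of fold with width was -0.55. Within 1 kb of a start rho was -0.58 and farther away -0.41. These are descriptions across regions, which share libraries, and a wide region can hold more reads.

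**Figure D4:**
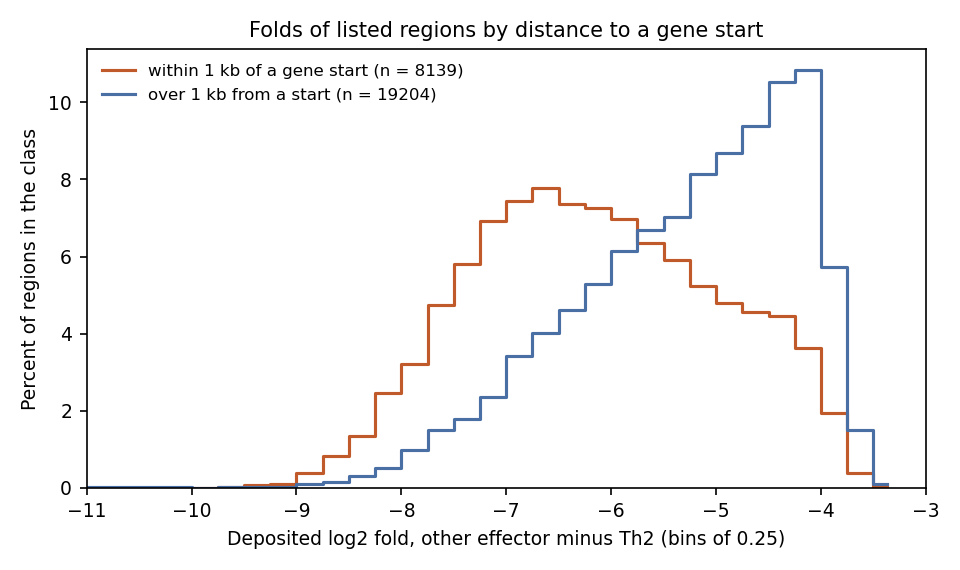
The percent of regions in each bin of 0.25 of the deposited log2 fold, other effector minus Th2. It is given for 8139 regions within 1 kb of a gene start and 19204 farther away. The 10 listed regions below -11 are not shown, and 1 of them, on an unplaced sequence, belongs to neither class. The medians are -6.21 near a start and, in the distal classes, between -5.17 and -5.07.

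Among regions within 1 kb of a start, the most negative lay at Sp1 (-9.72 at chr15:102405219-102406961) and Sp4 (-9.48), which encode factors that bind GC boxes. They were followed by regions at Zbtb20 (-9.47), which encodes a zinc finger repressor, and Camta1 (-9.34). The widest region inside a gene, of 2839 bp, lay at the start of Klf13 and had -8.45. On placed chromosomes the 10 most extreme values, from -15.08 to -10.95, lay outside protein-coding genes in 4 places on chromosomes 1, 2, 9 and 14, at regions of 191 to 722 bp, and 1 region on an unplaced sequence, of 1368 bp and -11.32, also fell in this range. At the region of -15.08 (chr2:98667058-98667380) other effector minus Treg was -14.06. One of the chromosome 1 regions, with -12.98 here, had 14.41 in naive minus other effector. Unique mapping of reads in these places was not examined.

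By gene, Foxp1, a factor of naive lymphocytes, had the most regions, 28, while Runx1, a factor of T cell development, had 27. Itpr1, which encodes a calcium channel of the endoplasmic reticulum, and Zmiz1 each had 26. Per 100 kb of gene span plus 100 kb, Irf2bp2 was densest with 17.0, followed by Cebpb with 16.7, Ccr1 with 15.0 and Rap1b with 13.7. Klf6 had 12.9, Fos 12.6, Dusp5, a MAP kinase phosphatase gene, 12.4 and Tnfaip3 12.2. Of 9488 windows of 100 kb with a listed region the median held 2, and 222 held at least 10. The fullest, with 19, spanned Il10ra, which encodes the IL-10 receptor, and Tmprss13 on chromosome 9, and another with 18 held Ccr1. The regions were spread over all chromosomes, from 47.1% of merged regions listed on chromosome 12 to 59.6% on chromosome 19.

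Promoter sequence differed between covered and other windows. Of 21263 windows, 7513 (35.3%) were covered by a listed region over at least 150 of their 300 bases, and these had a median fold of -6.55. By gene, 6546 of 17492 (37.4%) had a covered window. Covered windows had a median GC content of 62.7% and 23 CpG dinucleotides, against 52.3% and 6 in windows not covered. The SP and KLF motif was in 70.9% of covered windows, against 46.2% of all windows, and ETS in 32.9%, against 18.7%. CRE was in 12.9%, against 8.49%, the E-box in 11.2%, against 7.84%, and NF-Y in 39.8%, against 38.2%. The reverse held for GATA, in 7.67% of covered windows against 15.9% of all, for NFAT with 14.5% against 19.3%, for AP-1 with 4.59% against 6.99%, for RUNX with 3.25% against 4.71% and for T-box with 2.84% against 3.68%. GC content was not matched between these sets, and a window can hold overlapping matches of different motifs. Among covered windows, the SP and KLF motif was in 74.9% of the 5091 with a fold of -6 or lower and in 62.4% of the 2422 above -6, whereas GATA was in 6.78% and 9.54%.

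**Figure D5:**
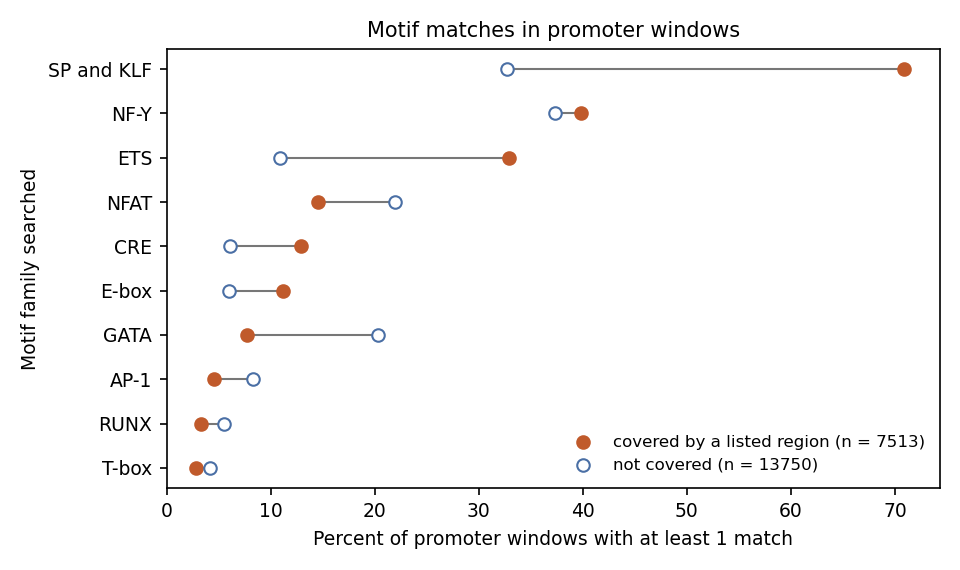
Percent of promoter windows of 300 bases with at least 1 match to each motif family on either strand, for 7513 windows covered by a listed region (filled) and 13750 not covered (open). SP and KLF, ETS, CRE, E-box and NF-Y matches are more frequent in covered windows, and the other families less frequent.

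Only the comparison of naive with Treg cells shares no population with that of other effector and Th2 cells. Of its 6516 merged regions (12.4% of all), 1760 were also listed here, which is 27.0% of that list and 6.29% of this one. They comprised 1481 of the 3491 regions higher in Treg than in naive cells (42.4%) and 279 of the 3025 higher in naive cells (9.22%), with median folds of other effector minus Th2 of -5.69 and -5.02. For all merged regions the share listed here was 53.2%, but that background consists of regions listed in at least 1 comparison. It includes all 27959 merged regions of this list, also those listed nowhere else. That the shares above are lower is therefore not a result about naive or Treg cells.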

How the data were processed

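ATAC-seq regions were taken from 6 deposited lists of differential regions, 1 for each pair of 4 sorted T helper populations. The authors' values are log2 folds of the first-named minus the second-named population, 1 per region, and the log2 scale was assumed from the tool named. Differential regions came from DiffBind, per the submitters' processing notes, which name build mm9. The unplaced sequence names and the positions of gene starts fit GRCm38 instead, and coordinates are given 1-based on GRCm38. Aligner, peak caller, read shift, normalization, threshold and filters: not given in the sources used here. Depth is unknown.

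Overlapping regions of the 6 lists (1 bp or more shared) were merged, so the background holds only regions listed in some comparison. Each region was assigned to the protein-coding gene (21900 in the RefSeq table of GRCm38.p6) that holds its midpoint, otherwise to the nearest gene end within 100 kb. Distances to a gene start used 32851 starts of 27025 genes of any type, and 832 regions on chromosome 18 or unplaced sequences had no start to measure and stayed out of those shares. A promoter window counted as covered at 150 of 300 bases. Intervals are exact Clopper-Pearson 95% intervals, and no test was run. The counting steps were tested on simulated data. Python 3.11.15, pandas 2.3.3, numpy 2.4.6, SciPy 1.17.1 and matplotlib 3.10.9 were used.

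The members, the 21 gene lists (275 genes) and the 10 motifs were chosen with earlier results of these data known. Named are 37 fixed genes, the 10 genes with most regions, the 10 densest, the most extreme and widest regions, the 5 densest windows, and per list the 2 genes with most regions, the one with the most negative fold and those without a region where 5 or fewer. Stat6, Il4ra, Cd36, Tbp, Polr2a, Rplp0, Gapdh, Csf1r and the regions within 1 kb of a start with the most negative folds were chosen after their values were seen. Several further genes given only with counts were also chosen then. Some list members are not reported here by name. Alternatives covered the fold threshold, the distance to a start, the assignment distance, the merging rule, genes as units, the coverage of windows and, added after seeing the data, distal regions alone and 2 lists without genes of the sort gate.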

Additional observations from a re-analysis of the deposited data

How the results depend on the processing

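Requiring an absolute fold of at least 6 left 9716 of the 28175 listed regions, against 26626 at 4 or more and 27028 without unplaced sequences and regions over 100 kb from a gene. The share of regions within 1 kb of a gene start, 29.8%, was 30.8% at an absolute fold of at least 4, 48.2% at 6, 26.0% within 500 bp, 33.8% within 2 kb and 30.8% when any base of a region counted. With regions as units 7 of 21 gene lists stood above their background, and 7 to 9 did under 5 alternatives, of which the one restricted to regions over 1 kb from a start was added after seeing the data. With genes as units 18 did, and a gene with many regions has more chances to count there. Th2 cytokine, AP-1, NFAT and NF-kB, lipid, housekeeping and myeloid lists stayed above and B cell and CD8 and NK lists below in all 6. With assignment within 10 kb, Th2 transcription factors stood below the background (52.1%). Type 2 and alarmin receptors (56.1%) and epithelial and endothelial markers (55.2%) stood above it. At an absolute fold of at least 6, type 2 and alarmin receptors (21.4%) and tissue residence and adhesion (19.6%) stood above 18.5%. Mast cell and eosinophil markers fell to 0 of 6 there, and by gene they were at 37.5%, against 51.6%. With distal regions alone, epithelial and endothelial (48.8%) and sort markers (51.4%) stood above 47.7%. Between 14 and 19 of 20 housekeeping genes had a listed midpoint near an end, and 5 motif families had a larger share in covered windows than in all windows under each of 2 alternatives, as in the values reported. Of 148 single values 100 stayed within the interval of the main setting and 48 moved. Most moves were list shares at an absolute fold of at least 6, where the background was 18.5%, or with genes as units, where it was 51.6%. Those are unlike quantities to the main share of regions, so this tally does not measure stability. No paired analysis was possible because the lists hold 1 value per region and no replicate columns. Absence from a list does not show equal accessibility: of 4091 merged regions with an absolute fold beyond 6.93, the sum of the smallest listed folds of naive against Th2 and against other effector cells, 3097 (75.7%) were in neither of those lists.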

Other observations

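Unplaced sequences held 21 of the listed regions, from -11.32 to -4.43. In the comparison of Treg with other effector and Th2 cells, 2039 merged regions had an absolute fold of other effector minus Th2 beyond 7.43, the sum of the smallest listed folds in the tables of Treg minus Th2 and other effector minus Treg, and 482 of them (23.6%) were in neither table. At regions with the same coordinates in the naive minus Treg and other effector minus Treg tables, the values differed by -0.17 or -0.18 at 2403 of 2761 (87.0%), the same offset between naive and other effector cells as against Th2 cells.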
